A study of Mus musculus with 23 samples.

Results

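Genes that a dividing cell switches on for DNA synthesis and for mitosis were followed by RNA sequencing in mouse embryonic brain cells carrying glioma-related alterations and in the tumours grown from such cells. The set was a list of 40 gene symbols, 18 for S phase and 22 for mitosis, read from the 39017 genes of the deposited count tables. The S phase genes were Mcm2 to Mcm7, Pcna, Rrm1, Rrm2, Tyms, Gins2, Cdc6, Cdt1, Ccne1, Ccne2, E2f1, E2f2 and Mybl2. The mitosis genes were Mki67, Top2a, Ccna2, Ccnb1, Ccnb2, Cdk1, Cdc20, Plk1, Aurka, Aurkb, Bub1, Bub1b, Birc5, Cenpe, Cenpf, Kif11, Kif20a, Tpx2, Nusap1, Foxm1, Ttk and Nek2. Rows were matched by symbol, and all 40 were expressed highly enough to be tested in every comparison.

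The 23 libraries came from C57BL/6 mouse brain cells electroporated in utero with a piggyBac transposon system, then sorted for GFP and expanded. They fell into 8 groups. At 72 h, when the cells were preneoplastic neural progenitors, there were 5 groups. EV ctl (2 libraries) was wild type with an empty vector. EV-PDGFRA (3 libraries) overexpressed Pdgfra, and its labels give no Trp53 or Atrx alteration. In the groups labelled Trp53-/-, Trp53 was targeted with CRISPR/Cas9. WT-AP (4 libraries) overexpressed wild-type histone H3.3 on a Trp53-/- background with an Atrx shRNA. K27M-AP (4 libraries) had H3.3K27M in place of the wild-type histone, and K27M-APP (2 libraries) added Pdgfra overexpression to K27M-AP. The tumours were harvested at 5 to 9 months. K27M-P T (1 library) carried H3.3K27M on the Trp53-/- background. K27M-AP T (3 libraries) and K27M-APP T (4 libraries) carried the same constructs as the preneoplastic groups of those names. The labels do not say whether libraries of a group came from separate animals or cultures, so each p-value below measures only the spread between these libraries.

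The 2 lists mark successive steps of one cycle. In late G1, cyclin D and cyclin E kinases phosphorylate the retinoblastoma protein, which releases E2F transcription factors to switch on the replication genes. Later, the MuvB complex with B-Myb and then FoxM1 switches on the mitosis genes, largely through a promoter element called the cell cycle genes homology region (CHR), often placed next to CCAAT boxes. In resting cells the DREAM complex, which shares MuvB, represses both lists, and p53 acts on it through the kinase inhibitor p21, the product of Cdkn1a. Neural progenitors of the embryonic cortex divide at the ventricle and leave the cycle as they differentiate.

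Libraries held 37300947 to 68642582 counted reads. Levels are given in CPM, a gene's count relative to the size of its library, with library sizes adjusted by TMM normalization across the 23 libraries. The altered genes were checked first. Trp53 was at 41.4 to 52.8 CPM in the EV ctl and EV-PDGFRA libraries and at 13.4 to 27.9 CPM in WT-AP, K27M-AP and K27M-APP, so these ranges did not overlap. Among the tumours, which are also labelled Trp53-/-, Trp53 was at 7.15 CPM in K27M-P T and 15.4 to 25.0 CPM in K27M-APP T, but it reached 49.3 CPM in 1 library of K27M-AP T. Atrx was at 189 to 299 CPM without its shRNA and at 79.2 to 88.5 CPM in K27M-APP, while WT-AP at 109 to 258 CPM overlapped the controls and K27M-AP was at 108 to 163 CPM. Pdgfra was at 34.3 to 48.9 CPM in EV ctl and at 413 to 1286 CPM in EV-PDGFRA. Without the Pdgfra construct it was at 79.7 to 252 CPM in WT-AP and 152 to 315 CPM in K27M-AP, and K27M-APP was at 801 to 865 CPM. The Pdgfra step with K27M-AP thus started from a higher level than the step with the empty vector. Tumours were at 200 CPM in K27M-P T, 75.0 to 410 CPM in K27M-AP T and 823 to 1868 CPM in K27M-APP T. Neural progenitor markers summed to 4319 to 12497 CPM. Microglial markers summed to at most 12.2 CPM and red blood cell markers to at most 0.781 CPM, with Tyrobp and Hbb-bs at 0 in every library. Endothelial and pericyte markers summed to 85.9 CPM in K27M-AP 4 and to at most 19.7 CPM elsewhere. Fibroblast markers summed to 81.7 CPM in K27M-AP 4 and to at most 24.6 CPM elsewhere.

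The promoters of the 2 lists differ in sequence, and a few are shown because they carry that difference. Promoters (250 bases before to 50 bases after each start) were taken from a RefSeq table on GRCm38.p6, in which 15 of the 18 S phase genes and 17 of the 22 mitosis genes were matched. Mcm4, Gins2, Ccne2, Ccna2, Aurkb, Kif20a, Tpx2 and Foxm1 were not matched. Letters for E2F (TTTGGCGC, TTTGCCGC, TTTCGCGC or TTTCCCGC), CHR (TTTGAA or TTCGAA) and the CCAAT box were searched on both strands. Capitals mark every match in the sequences. The first 3 S phase promoters hold E2F letters, and Ccne1 is shown as an S phase gene in whose window none of the 3 motifs was found. Mcm5 (chr8:75109259-75109558, plus strand) and Mcm6 (chr1:128359656-128359955, minus strand) each have an E2F match on one strand that overlaps an E2F match on the other. Cdc6 lies at chr11:98907901-98908200 on the plus strand and Ccne1 at chr7:38107441-38107740 on the minus strand.
Mcm5: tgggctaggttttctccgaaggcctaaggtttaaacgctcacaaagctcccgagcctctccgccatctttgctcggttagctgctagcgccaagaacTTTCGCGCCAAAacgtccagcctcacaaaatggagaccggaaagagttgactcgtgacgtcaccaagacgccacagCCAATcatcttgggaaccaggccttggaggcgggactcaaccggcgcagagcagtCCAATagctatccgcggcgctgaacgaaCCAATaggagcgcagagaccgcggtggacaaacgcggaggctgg
Mcm6: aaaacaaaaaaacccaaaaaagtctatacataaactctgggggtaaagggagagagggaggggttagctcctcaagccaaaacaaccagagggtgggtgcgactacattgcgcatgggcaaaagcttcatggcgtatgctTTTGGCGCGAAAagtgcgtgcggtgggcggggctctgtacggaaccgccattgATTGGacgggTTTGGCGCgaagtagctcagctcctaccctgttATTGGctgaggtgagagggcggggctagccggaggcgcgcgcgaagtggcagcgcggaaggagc
Cdc6: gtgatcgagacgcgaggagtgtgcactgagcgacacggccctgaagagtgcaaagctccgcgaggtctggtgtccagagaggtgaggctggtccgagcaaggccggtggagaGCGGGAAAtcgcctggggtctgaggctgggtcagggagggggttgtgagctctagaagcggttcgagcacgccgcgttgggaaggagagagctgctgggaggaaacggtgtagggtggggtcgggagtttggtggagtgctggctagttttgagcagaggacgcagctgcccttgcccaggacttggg
Ccne1: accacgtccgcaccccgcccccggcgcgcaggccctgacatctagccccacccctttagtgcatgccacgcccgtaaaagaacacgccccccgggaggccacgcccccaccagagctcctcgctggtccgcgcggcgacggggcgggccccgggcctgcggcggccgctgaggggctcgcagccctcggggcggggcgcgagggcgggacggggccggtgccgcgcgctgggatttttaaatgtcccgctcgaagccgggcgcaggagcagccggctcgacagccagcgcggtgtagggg

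The mitosis promoters shown hold TTTGAA beside CCAAT boxes in 4 cases, and Ccnb1 is shown as a mitosis gene with CCAAT boxes but no CHR letters in this window. Cdk1 (chr10:69352863-69353162, minus strand) has E2F letters as well. Ccnb2 (chr9:70421505-70421804), Cdc20 (chr4:118437294-118437593), Mki67 (chr7:135716330-135716629) and Ccnb1 (chr13:100786437-100786736) are also read from the minus strand.
Cdk1: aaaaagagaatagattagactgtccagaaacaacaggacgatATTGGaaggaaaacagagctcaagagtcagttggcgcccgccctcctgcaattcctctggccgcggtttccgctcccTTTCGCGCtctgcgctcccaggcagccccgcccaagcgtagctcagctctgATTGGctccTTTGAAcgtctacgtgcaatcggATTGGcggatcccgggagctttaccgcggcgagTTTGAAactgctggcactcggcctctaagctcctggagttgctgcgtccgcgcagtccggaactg
Ccnb2: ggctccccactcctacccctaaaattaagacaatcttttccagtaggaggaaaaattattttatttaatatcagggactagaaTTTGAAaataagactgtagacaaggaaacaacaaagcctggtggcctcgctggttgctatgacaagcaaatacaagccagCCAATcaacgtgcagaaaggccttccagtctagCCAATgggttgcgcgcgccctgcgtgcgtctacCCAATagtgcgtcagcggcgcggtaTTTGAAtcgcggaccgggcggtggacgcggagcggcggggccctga
Cdc20: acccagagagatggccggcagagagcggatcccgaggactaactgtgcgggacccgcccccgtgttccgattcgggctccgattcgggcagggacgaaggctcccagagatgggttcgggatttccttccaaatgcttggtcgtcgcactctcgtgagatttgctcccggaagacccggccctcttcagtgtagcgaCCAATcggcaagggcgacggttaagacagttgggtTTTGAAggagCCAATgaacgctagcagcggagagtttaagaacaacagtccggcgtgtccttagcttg
Mki67: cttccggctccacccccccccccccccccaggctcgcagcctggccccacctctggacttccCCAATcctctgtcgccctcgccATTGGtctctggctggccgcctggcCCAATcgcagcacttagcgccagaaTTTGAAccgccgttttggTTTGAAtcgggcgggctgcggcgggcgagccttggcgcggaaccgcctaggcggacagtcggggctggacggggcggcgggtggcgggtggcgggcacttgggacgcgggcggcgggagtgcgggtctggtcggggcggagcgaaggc
Ccnb1: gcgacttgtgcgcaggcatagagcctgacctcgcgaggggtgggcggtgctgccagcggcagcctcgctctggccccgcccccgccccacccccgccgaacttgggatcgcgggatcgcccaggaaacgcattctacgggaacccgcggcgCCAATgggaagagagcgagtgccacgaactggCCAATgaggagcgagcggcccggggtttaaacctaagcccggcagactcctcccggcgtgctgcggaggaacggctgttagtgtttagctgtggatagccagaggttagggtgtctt

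E2F letters were in 7 of 17 S phase promoters (41.2%), those of Cdc6, Cdt1, E2f2, Mcm3, Mcm5, Mcm6 and Mcm7, and in 1 of 17 mitosis promoters (5.88%). The share over all 32851 promoters was 2.26%. CHR letters went the other way, with 3 of 17 S phase promoters (17.6%), 12 of 17 mitosis promoters (70.6%) and 19.2% of all promoters. CHR letters together with 2 or more CCAAT boxes were in 9 mitosis promoters (52.9%), those of Aurka, Bub1, Ccnb2, Cdc20, Cdk1, Cenpf, Mki67, Top2a and Ttk, against 2.31% of all promoters. Genes of the same 2 functions that are outside the set had similar shares. Among 29 promoters of other DNA replication genes, 27.6% held E2F letters, and among 35 promoters of other mitosis genes, 74.3% held CHR letters. A match describes letters in a window and is neither a bound site nor a cause of any level below.

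Compared per length, as CPM per kilobase of exon, the median level over the 23 libraries was highest for Top2a (102), the topoisomerase that untangles sister chromatids, for Cdc20 (90.6), an activator of the anaphase-promoting complex, and for Pcna (90.5), the clamp that holds DNA polymerase. Ccna2, the cyclin used in both S phase and G2, was at 80.6, Rrm2, a subunit of ribonucleotide reductase, at 58.2 and Mki67, which coats mitotic chromosomes, at 54.7. The lowest medians were those of the transcription factors Mybl2 (5.12), E2f1 (4.28) and E2f2 (3.20), and the lowest of the mitosis list was Ttk (9.56), a spindle checkpoint kinase.

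Each library was then summarised by 1 value per list, the median over the list's genes of log2 CPM relative to the same gene's median over the 23 libraries. By this measure all but 4 libraries lay within 1 log2 unit of 0 on both lists. The exceptions were EV ctl 5, EV-PDGFRA 3, K27M-AP 2 and K27M-AP 4, and WT-AP 1 and EV ctl 4 were close to that limit. The libraries that stood low did so in 3 ways. K27M-AP 4 was low on both lists, at −3.11 for S phase and −4.54 for mitosis. EV ctl 5 was at −1.25 for S phase and −3.39 for mitosis, and EV-PDGFRA 3 at −0.25 and −1.46, so that in both the mitosis list was the lower of the 2. The reverse order held in EV ctl 4 (−0.92 for S phase and −0.30 for mitosis), WT-AP 1 (−0.97 and −0.40) and K27M-AP 2 (−1.13 and −0.11). EV ctl 5, EV-PDGFRA 3 and K27M-AP 4 were held only by the later of the 2 deposited tables. So were EV ctl 4, WT-AP 3, WT-AP 5 and K27M-AP 3, whose mitosis lists were at −0.30 to 0.24. The 2 K27M-APP libraries lay close together, at 0.21 and 0.24 for S phase and 0.34 and 0.30 for mitosis. Tumour libraries ran from −0.25 to 0.50 for S phase and from −0.25 to 0.47 for mitosis. In bulk samples, fewer dividing cells and less of these RNAs per dividing cell cannot be told apart.

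**Figure D1:**
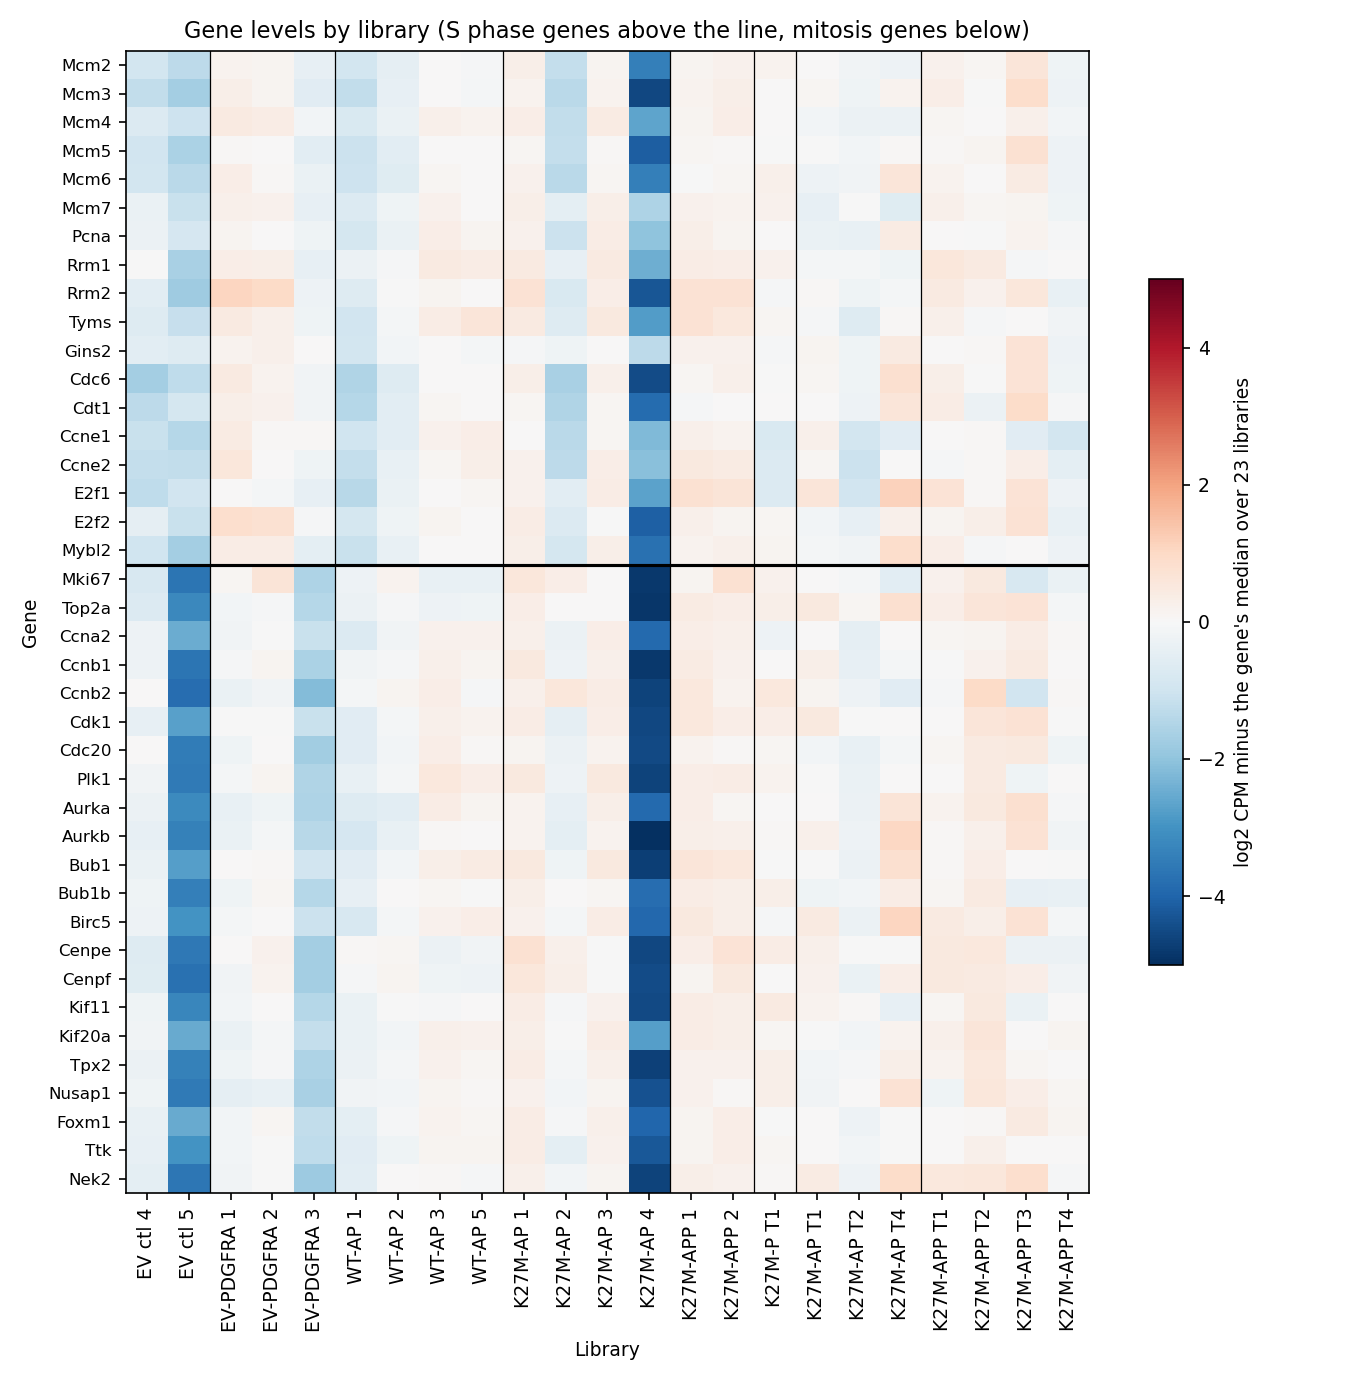
Each row is 1 of the 40 genes and each column 1 of the 23 libraries; colour gives log2 CPM minus the gene's median over the libraries. The columns of K27M-AP 4 and, for the mitosis genes, EV ctl 5 are low throughout, with list medians of −4.54 and −3.39 for mitosis.

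**Figure D2:**
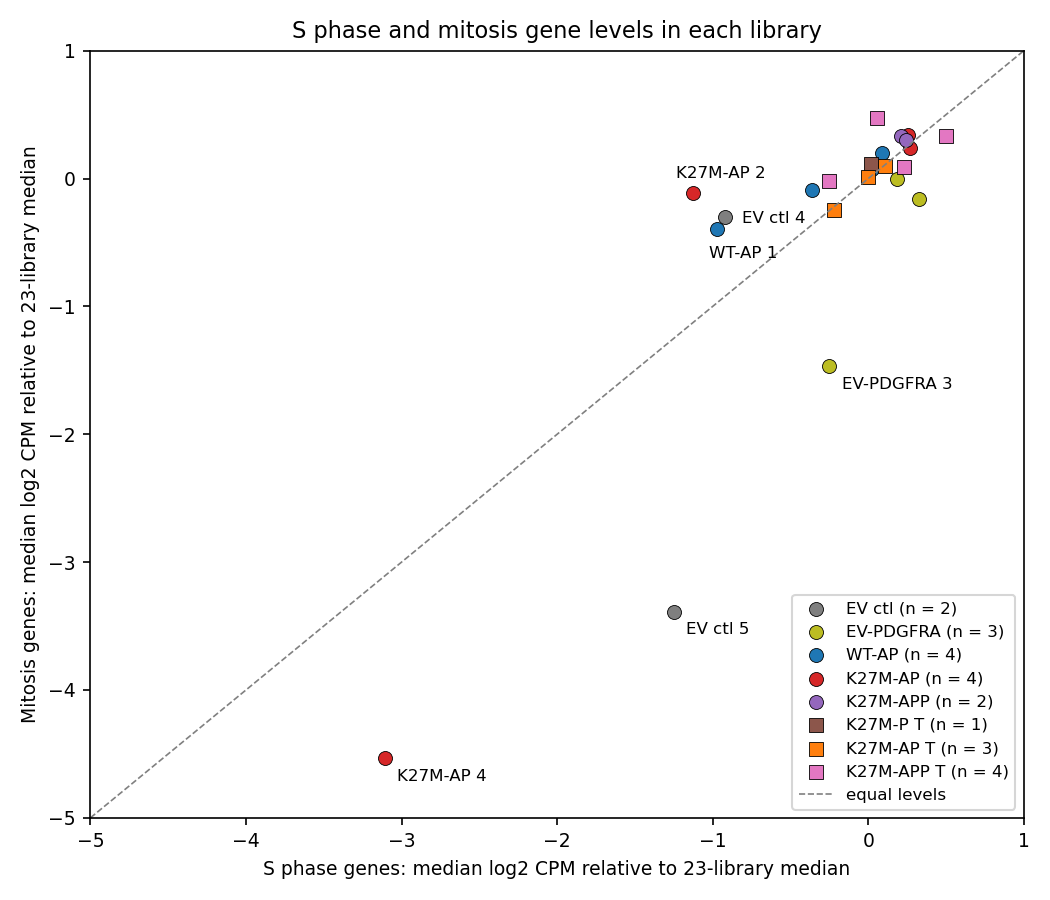
Each point is 1 library, with the S phase list median on the x axis and the mitosis list median on the y axis, both in log2 units relative to the gene medians. EV ctl 5 and EV-PDGFRA 3 lie low on the mitosis axis, EV ctl 4, WT-AP 1 and K27M-AP 2 lie low on the S phase axis, and K27M-AP 4 lies low on both.

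The MCM genes encode the 6 subunits of the replicative helicase. Mcm5 was at 102 and 65.2 CPM in EV ctl 4 and 5 and at 205, 196 and 137 CPM in the EV-PDGFRA libraries. It was at 93.0, 137, 196 and 198 CPM in WT-AP, at 209, 85.9, 206 and 11.3 CPM in K27M-AP, and at 210.0 and 206 CPM in K27M-APP. The 2 EV ctl libraries were below all EV-PDGFRA and K27M-APP libraries, while WT-AP and K27M-AP each contained libraries as low as EV ctl. Tumours were at 192 CPM in K27M-P T, 193, 176 and 203 CPM in K27M-AP T and 204, 217, 335 and 163 CPM in K27M-APP T. Mcm2 gave a similar picture, with 105 and 80.3 CPM in EV ctl, 219, 216 and 146 CPM in EV-PDGFRA, and 238, 86.7, 215 and 18.5 CPM in K27M-AP. Mcm3, Mcm4, Mcm6 and Mcm7 were at 58.9 to 141 CPM in EV ctl and 131 to 296 CPM in EV-PDGFRA, and Mcm7 was the only one of them whose ranges in these 2 groups overlapped. Pcna was at 178 and 120.1 CPM in EV ctl against 242, 218 and 187 CPM in EV-PDGFRA, a narrower gap.

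Cdc6 and Cdt1 load the helicase onto origins, and Gins2 is a subunit of the complex that activates it. Cdc6 was at 11.8 and 15.6 CPM in EV ctl and at 52.7, 42.6 and 33.6 CPM in EV-PDGFRA. In K27M-AP it was at 47.2, 12.3, 45.7 and 1.70 CPM, so library 2 was as low as EV ctl and library 4 was lower again. WT-AP had the same spread on a smaller scale, at 13.6, 24.1, 38.3 and 38.2 CPM. Cdt1 was at 17.1 and 22.7 CPM in EV ctl, and both genes were higher in EV ctl 5 than in EV ctl 4. Gins2 varied less, from 24.4 to 73.4 CPM over all libraries other than K27M-AP 4, where it was at 18.5 CPM.

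Rrm1 and Rrm2, the subunits of ribonucleotide reductase, and Tyms, which makes thymidylate, supply the nucleotides. Rrm2 was at 111 and 46.7 CPM in EV ctl, 336, 312 and 133 CPM in EV-PDGFRA, 102, 161, 179 and 161 CPM in WT-AP, 263, 94.6, 203 and 8.26 CPM in K27M-AP and 266 and 265 CPM in K27M-APP. Rrm1 was at 303 and 97.8 CPM in EV ctl, so that for this gene EV ctl 4 reached the level of several libraries of the other groups. Tyms was at 23.4 and 16.4 CPM in EV ctl and 59.4 and 52.2 CPM in K27M-APP, and these did not overlap.

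Cyclins E1 and E2 drive entry into S phase, E2f1 and E2f2 encode activating E2F factors, and Mybl2 encodes B-Myb, which links the 2 waves. Ccne1 was at 17.0 and 13.6 CPM in EV ctl, at 48.6, 38.1 and 38.4 CPM in EV-PDGFRA, and at 18.5, 25.3, 43.3 and 46.1 CPM in WT-AP. Ccne2 was at 26.4 and 26.1 CPM in EV ctl and at 90.7, 62.1 and 52.8 CPM in EV-PDGFRA, a separation in which the 2 EV ctl libraries were nearly equal. E2f1 was at 5.54 and 6.92 CPM in EV ctl, 13.7, 12.7 and 10.3 CPM in EV-PDGFRA, 15.5, 9.40, 17.4 and 2.07 CPM in K27M-AP and 22.9 and 21.3 CPM in K27M-APP. The 2 K27M-APP libraries were thus the highest of the 15 preneoplastic libraries for E2f1. Mybl2 was at 11.9 and 7.21 CPM in EV ctl, 31.0, 30.7 and 17.0 CPM in EV-PDGFRA and 29.1, 12.9, 29.3 and 1.74 CPM in K27M-AP. E2f2 had the same pattern at a lower level, with 0.893 CPM in K27M-AP 4 and 7.23 to 28.0 CPM elsewhere.

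Among the mitosis genes, Mki67 was at 319 and 44.1 CPM in EV ctl 4 and 5 and at 596, 853 and 188 CPM in EV-PDGFRA. It was at 459, 621, 424 and 429 CPM in WT-AP, 808, 685, 550.0 and 19.2 CPM in K27M-AP and 607 and 921 CPM in K27M-APP. For this gene both EV ctl libraries were below all WT-AP libraries, and K27M-AP 2, which was low for the S phase genes, was not low. Top2a was at 568 and 99.4 CPM in EV ctl, 826, 875 and 340.4 CPM in EV-PDGFRA and 1151, 921, 918 and 31.3 CPM in K27M-AP.

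Cdk1 with cyclin A2 and the B cyclins makes up the kinase that starts mitosis. Ccnb1 was at 117 and 10.9 CPM in EV ctl, 132, 153 and 46.3 CPM in EV-PDGFRA, 122, 133, 163 and 150.3 CPM in WT-AP, 193, 115, 166 and 4.88 CPM in K27M-AP and 186 and 162 CPM in K27M-APP. EV ctl 4 thus lay just under the lowest WT-AP library, and EV ctl 5 lay far under it. Ccnb2 showed the same split, at 59.7 and 4.17 CPM in EV ctl and 47.8, 53.1 and 13.4 CPM in EV-PDGFRA. Cdk1 was at 137 and 27.6 CPM in EV ctl and Ccna2 at 279.8 and 59.5 CPM. Cdc20 was at 169 and 15.1 CPM in EV ctl and 115, 153, 212 and 177 CPM in WT-AP, so EV ctl 4 fell inside the WT-AP range.

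Plk1, Aurka, Aurkb, Nek2 and Ttk encode mitotic kinases. Plk1 was at 72.9 and 7.11 CPM in EV ctl, 76.5, 91.4 and 29.3 CPM in EV-PDGFRA and 115, 69.2, 115 and 3.33 CPM in K27M-AP. Foxm1, the transcription factor of the late wave, was at 56.8 and 12.7 CPM in EV ctl, 66.5, 78.3 and 31.6 CPM in EV-PDGFRA and 93.8, 70.9, 87.8 and 4.64 CPM in K27M-AP. Its difference between EV ctl 4 and EV ctl 5 was the smallest of the mitosis list. The checkpoint, kinetochore and spindle genes, which are Bub1, Bub1b, Birc5, Cenpe, Cenpf, Kif11, Kif20a, Tpx2 and Nusap1, were likewise lower in EV ctl 5 than in EV ctl 4 and lowest of their groups in EV-PDGFRA 3 and K27M-AP 4. When EV ctl 5 and K27M-AP 4 are set aside, EV-PDGFRA 3 was the lowest of the remaining 21 libraries for 22 of 22 mitosis genes and for 1 of 18 S phase genes. In that same order K27M-AP 2 was lowest for 10 S phase genes, WT-AP 1 for 6 and EV ctl 4 for 1, and none of these was lowest for a mitosis gene. The share of all genes for which each library was lowest was not computed, so these counts are only a description.

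**Figure D3:**
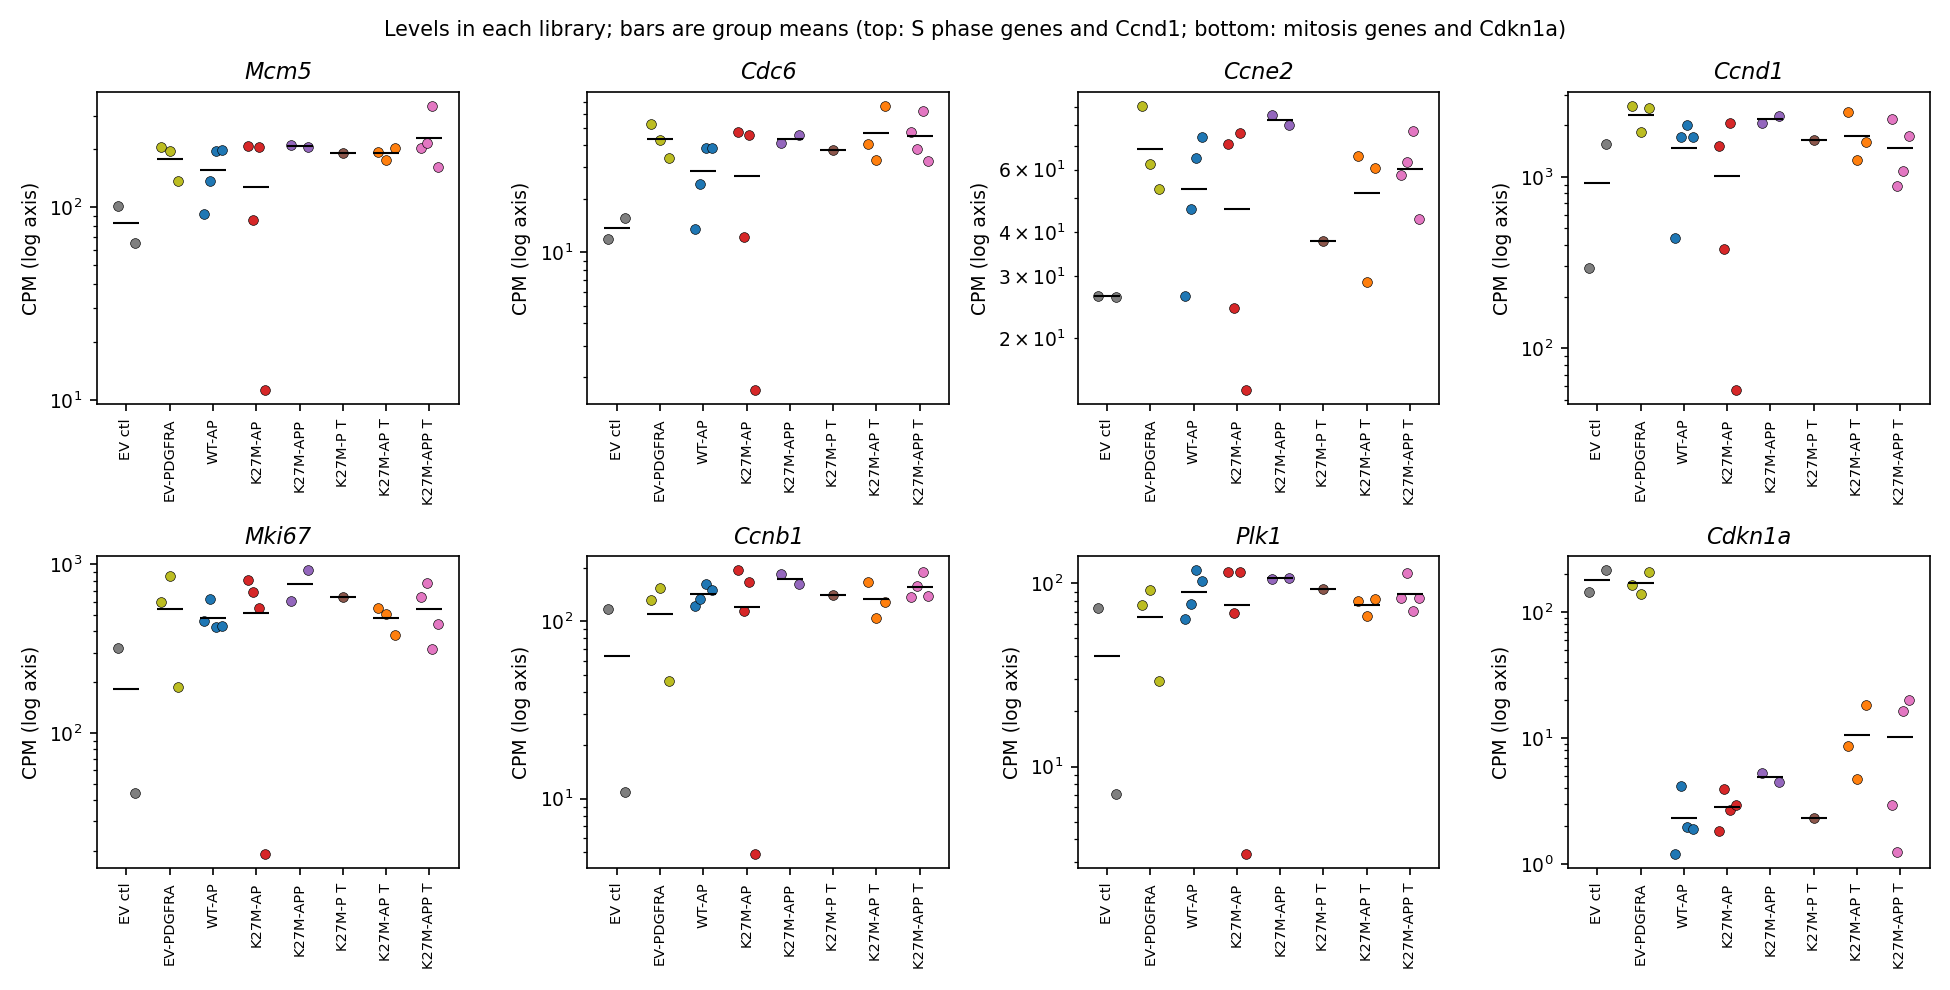
Levels in CPM on log axes for Mcm5, Cdc6, Ccne2 and Ccnd1 in the upper panels and Mki67, Ccnb1, Plk1 and Cdkn1a in the lower panels; points are libraries and bars are group means. Ccnb1 in EV ctl is at 117 and 10.9 CPM, and in K27M-AP 1 library is at 4.88 CPM against 115 to 193 CPM in the other 3.

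EV ctl 5 was set against EV ctl 4, the only other library of its group. All 22 mitosis genes were at least 4-fold lower in EV ctl 5, at 6.98 to 22.3% of EV ctl 4 with a median of 12.8%. The S phase genes were at 32.2 to 133% with a median of 72.9%, so the 2 lists did not overlap. Of the 18 S phase genes, 2 (Rrm1 and Rrm2) were at least 2-fold lower and 0 were at least 4-fold lower. Over all 20197 genes, 16% were at least 2-fold lower and 5.29% at least 4-fold lower. The lowest were Ccnb2 at 6.98% (95% exact interval 6.05 to 8.02%), Cdc20 at 8.92% (8.28 to 9.60%) and Ccnb1 at 9.28% (8.50 to 10.1%), and these intervals cover counting error only. The highest were Cdt1 at 133% (122 to 145%), Cdc6 at 132% (119 to 147%) and E2f1 at 125% (107 to 146%), all 3 above EV ctl 4. Among the 23 libraries EV ctl 5 was lowest or second lowest for all 22 mitosis genes and for 11 of 18 S phase genes. EV ctl 5 was picked beforehand as a low library, and the share of all genes with such a rank was not computed. With 1 library on each side there is no replicate check on this difference.

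K27M-AP 4 was set against the mean of the other 3 K27M-AP libraries, and it was the lowest of all 23 libraries for all 40 genes. This library too was picked beforehand as low, and the share of all genes for which it was lowest was not computed. The mitosis genes were at 2.72 to 12.7% of the other libraries, with a median of 3.80%, and all 22 were at least 4-fold lower. The S phase genes were at 4.42 to 42.9%, with a median of 11.5%. Percentages refer to the mean CPM of the other libraries, while fold counts refer to the mean of their log2 levels. By the fold counts, 18 were at least 2-fold and 13 at least 4-fold lower, against 12.8% and 4.98% of all genes. Ccne2, with a log2 ratio of −1.83, was not among the 13. The lowest were Aurkb, a subunit of the chromosomal passenger complex (2.72%), Mki67 (2.81%) and Ccnb2 (3.04%). The highest were Gins2 (42.9%), Mcm7 (32.2%) and Ccne1 (26.2%), and Kif20a was the highest of the mitosis list. Gins2, Mcm7 and Kif20a each overlap a gene on the other strand (Gse1, Ap4m1 with Cops6, and Cdc23). So does Ccne2 (Ints8), which was at 25.0%. So do Ccna2 (Exosc9), Cdc20 (Elovl1) and Nusap1 (Oip5), which were at 6.18, 4.31 and 4.55%. The strand setting of the counting was not given in the sources used here, so reads of overlapping genes cannot be told apart.

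**Figure D4:**
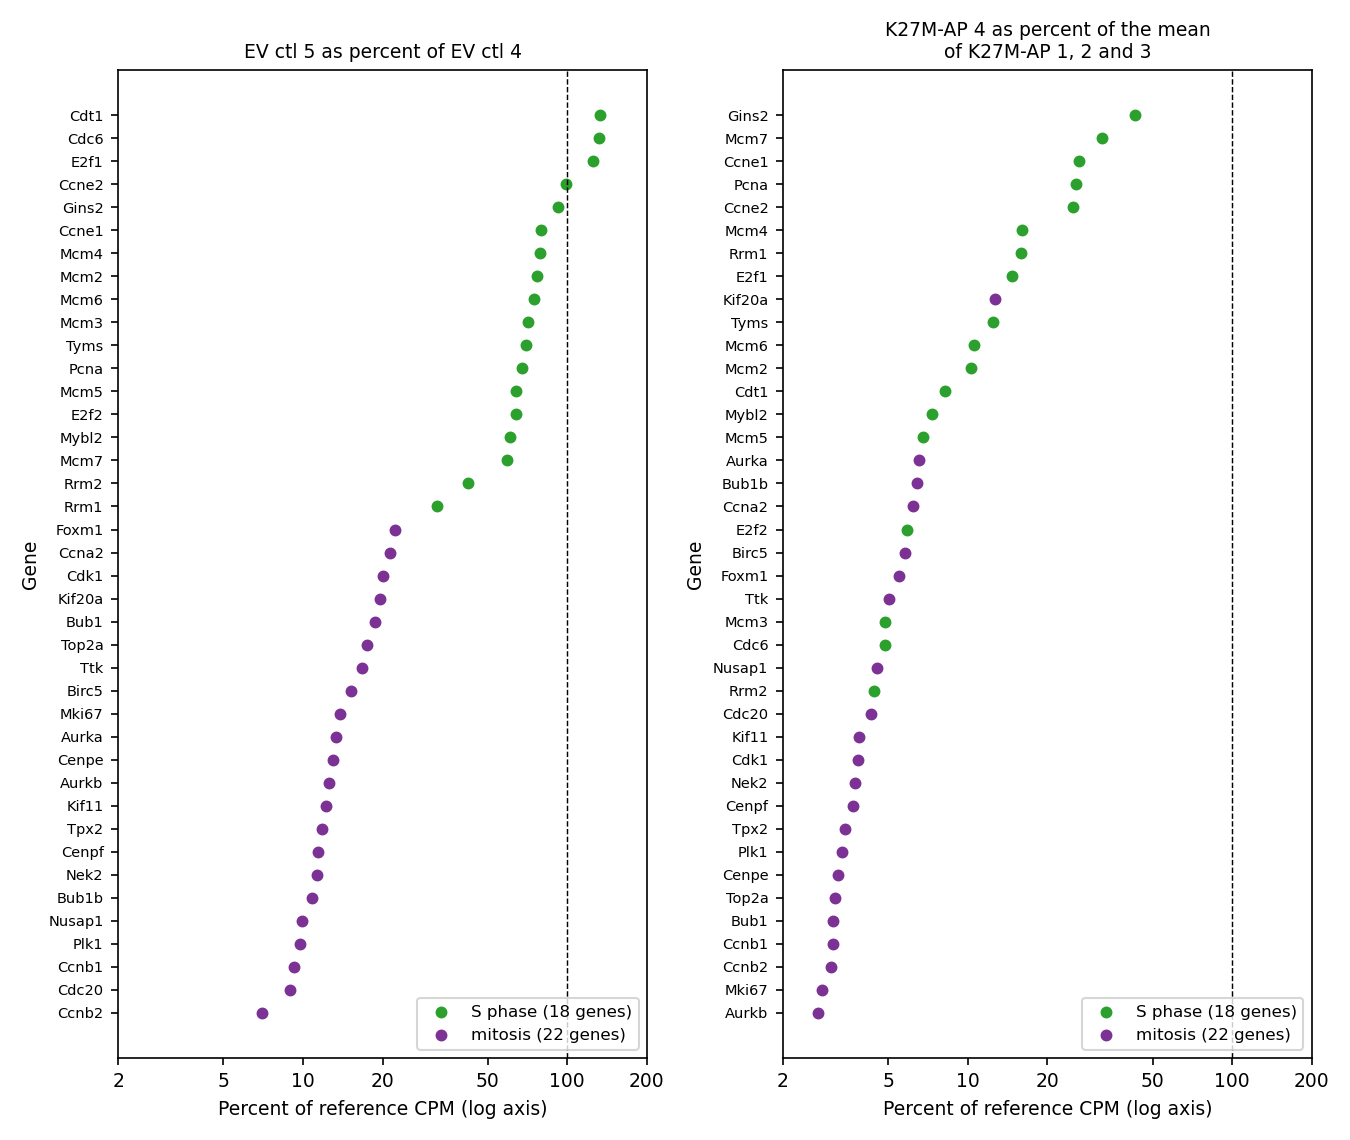
Each point is 1 gene, placed by its level in the low library as a percentage of the reference on a log axis, for EV ctl 5 against EV ctl 4 and for K27M-AP 4 against the mean of K27M-AP 1 to 3. In EV ctl 5 the mitosis genes end at 22.3% and the S phase genes begin at 32.2%, while in K27M-AP 4 the lists overlap between 4.42 and 12.7%.

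Genes of the same pathways outside the set were low in the same 2 libraries. In EV ctl 5, 33 of 36 other mitosis genes and 9 of 30 other DNA replication genes were at least 2-fold lower, with median log2 ratios of −2.50 and −0.66. In K27M-AP 4, 34 of 36 and 27 of 30 were at least 2-fold lower, with medians of −4.21 and −2.71. The medians of all genes were −0.02 and 0.04. Cell type markers also differed in K27M-AP 4. The 8 astrocyte markers summed to 1866 CPM against 342 to 681 CPM in K27M-AP 1 to 3, and the 6 markers of myelinating oligodendrocytes to 1798 CPM against 87.5 to 420.1 CPM. Of these markers, 6 of 8 and 5 of 6 were at least 2-fold higher than in the other K27M-AP libraries, against 14.3% of all genes. The 10 neuron markers summed to 1329 CPM against 927 to 1131 CPM, and 7 of 10 were at least 2-fold higher, with a median log2 ratio of 2.38. Endothelial and pericyte markers summed to 85.9 CPM against 5.79 to 9.90 CPM, and fibroblast markers to 81.7 CPM against 3.16 to 9.83 CPM. These 2 lists share Pdgfrb, and their median log2 ratios were −0.08 and −1.10. Of 5 genes tested in each, 2 were at least 2-fold higher, and 1 and 3 at least 2-fold lower. Gfap, the astrocyte filament, was at 375 CPM against 1.36 to 10.2 CPM, and Mbp, a myelin protein, at 339 CPM against 2.49 to 13.7 CPM. The 10 progenitor markers summed to 4319 CPM against 6191 to 6817 CPM, where Nes was at 97.7 CPM against 618 to 1462 CPM but Sox2 at 426 CPM against 300.5 to 378 CPM. The lower sum was not shared by the list, as the median log2 ratio was 0.28. Of the 10, 2 were at least 2-fold lower and 2 at least 2-fold higher. In EV ctl 5 the astrocyte markers summed to 405 CPM against 1163 CPM in EV ctl 4. The progenitor markers there summed to 8088 CPM against 8187 CPM, with a median log2 ratio of −0.61, and 3 of 10 were at least 2-fold lower and 0 at least 2-fold higher. Nes was at 1058 CPM against 563 CPM and Sox2 at 259 CPM against 466 CPM. The part of these markers in the low levels was not tested. The total counts of both libraries lay inside the range of the other 21.

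Levels of the D cyclins, which act before cyclin E, are given by library. Ccnd1 was lowest of all in K27M-AP 4 (57.3 CPM), EV ctl 4 (295 CPM), K27M-AP 2 (380.0 CPM) and WT-AP 1 (441 CPM), and the next library, K27M-APP T2, was at 883 CPM. The same 4 libraries were the lowest for Ccnd2, at 143 to 357 CPM, with EV ctl 5 next at 537 CPM. These are K27M-AP 4 and the 3 libraries whose S phase list stood low while their mitosis list did not. EV ctl 5, whose S phase list was at −1.25, was not among them, at 1544 CPM for Ccnd1. Cdkn2c, which encodes the kinase inhibitor p18, was lowest in the 3 libraries with the lowest mitosis lists, at 29.8 CPM in EV ctl 5, 43.0 CPM in K27M-AP 4 and 50.4 CPM in EV-PDGFRA 3, and the next was at 86.9 CPM. This grouping was noticed in the data and was not tested.

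Of the brakes, Cdkn1a was at 143 and 213 CPM in EV ctl and 162, 138 and 209 CPM in EV-PDGFRA, and at 1.21 to 20.2 CPM in the 18 libraries labelled Trp53-/-. The difference passed the test (edgeR quasi-likelihood, Benjamini-Hochberg adjusted) in WT-AP against EV ctl, with a log2 fold change of −6.23 (SE 0.42, adjusted p = 2.82e-05), and in K27M-APP against EV-PDGFRA, with −5.12 (SE 0.53, adjusted p = 0.000838). Cdkn2a, the Ink4a/Arf locus, was higher in K27M-APP at 106 and 109 CPM than in EV-PDGFRA at 36.0, 26.4 and 52.7 CPM (log2 fold change 1.48, SE 0.35, adjusted p = 0.0486). Rb1 was at 33.2 to 89.6 CPM, and its highest value was in K27M-AP 4.

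Between groups, none of the 40 genes passed an adjusted p of 0.05 in any of 8 comparisons or 2 interaction terms by edgeR, by DESeq2 or by limma voom with sample weights. The results are therefore given as sizes with their errors, and comparisons that name the same group share its libraries. In WT-AP against EV ctl, 0 of 40 genes were called and 0 had an unadjusted p below 0.05. By the same rules edgeR called 0.312% of all genes (0.0842% as higher), and 10% of all genes had an unadjusted p below 0.05. All 40 log2 fold changes were positive, with medians of 0.84 for S phase and 1.08 for mitosis and a median of 0.00 over all genes. Ccne1 had 1.15 (SE 0.56, adjusted p = 0.522), Ccne2 1.04 (SE 0.60, 0.603), Mki67 1.43 (SE 1.06, 0.686) and Cenpf, a kinetochore protein, 1.39 (SE 1.02, 0.685). All WT-AP libraries were above both EV ctl libraries for 2 S phase genes (Mcm3 and Ccne1) and 7 mitosis genes (Mki67, Top2a, Ccnb1, Cenpe, Cenpf, Tpx2 and Nusap1), and 9.58% of all genes were so placed. All WT-AP libraries were below for 0 members, against 10.6% of all genes. The size rested on which EV ctl library was used, as the mitosis median was 0.29 without EV ctl 5 and 3.31 without EV ctl 4.

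In EV-PDGFRA against EV ctl, which uses the same EV ctl libraries, edgeR called 0% of all genes and 0 of 40 members. By unadjusted p below 0.05 there were 3, Ccne1, Ccne2 and Gins2, against 7.03% of all genes. Again all 40 values were positive, with medians of 1.18 for S phase and 0.77 for mitosis. Here the S phase genes separated the groups: all EV-PDGFRA libraries were above both EV ctl libraries for 16 of 18 S phase genes, all but Mcm7 and Rrm1, and for 0 of 22 mitosis genes, where the share of all genes was 11.4%. The reverse order held for 0 members and 12.2% of all genes. Ccne1 was at 41.7 ± 5.96 CPM (SD, n = 3) against 15.3 ± 2.45 CPM (SD, n = 2), a log2 fold change of 1.48 (SE 0.59, adjusted p = 0.690 by edgeR). Ccne2 had 1.42 (SE 0.63, 0.706), Mki67 1.62 (SE 1.11, 0.747) and Cenpe, a kinetochore motor, 1.20 (SE 1.06, 0.802). Without EV ctl 5 the S phase median was 1.00 and the mitosis median −0.10, with 9 of 22 mitosis genes positive. Without EV ctl 4 the medians were 1.45 and 2.95. Of the 2 deposited tables, the earlier one held EV-PDGFRA 1 and 2 but not EV-PDGFRA 3 or the EV ctl libraries, so group and table partly coincide. With a term for the table in the fit, the medians were 1.15 for S phase and 0.35 for mitosis. All 18 S phase genes and 20 of 22 mitosis genes were then positive, and 1 member had an unadjusted p below 0.05 by edgeR.

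In K27M-AP against WT-AP, the comparison of mutant with wild-type H3.3, edgeR called 0.0297% of all genes and 0 of 40 members, and 0 members had an unadjusted p below 0.05, against 3.95% of all genes. The medians were −0.21 for S phase and −0.18 for mitosis, and the groups overlapped for all 40 genes, where 1.13% of all genes were wholly above and 0.837% wholly below. Ccne1 had −0.42 (SE 0.44), Rrm1 −0.26 (SE 0.50), Cdc20 −0.32 (SE 0.79) and Nusap1, a spindle protein, −0.29 (SE 0.74), all with an adjusted p of 1.00. The direction rested on K27M-AP 4. Without it the medians were 0.14 and 0.21, with 17 of 18 S phase and 22 of 22 mitosis genes positive. Libraries of the earlier table alone gave medians of 0.36 and 0.36, and libraries found in the later table alone gave −0.70 and −0.82. The latter are K27M-AP 3 and 4 and WT-AP 3 and 5, so they include K27M-AP 4. By library, the S phase and mitosis list medians were 0.27 and 0.24 in K27M-AP 3. They were 0.09 and 0.20 in WT-AP 3 and 0.02 and 0.07 in WT-AP 5.

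In K27M-APP against K27M-AP, the effect of adding Pdgfra to the mutant cells, edgeR called 0% of all genes and 0 of 40 members, and 0 members had an unadjusted p below 0.05, against 5.94% of all genes. The medians were 0.65 for S phase and 0.54 for mitosis, all 40 values were positive, and without K27M-AP 4 the medians were 0.29 and 0.14. Both K27M-APP libraries were in the earlier table, while K27M-AP 3 and 4 were only in the later one. With a term for the table in the fit, the medians were 0.65 and 0.30. Both K27M-APP libraries were above all K27M-AP libraries for 7 S phase genes (Mcm3, Rrm2, Tyms, Gins2, Ccne1, Ccne2 and E2f1) and 2 mitosis genes (Aurkb and Bub1), against 9.97% of all genes, and below for 0 members against 8.99% of all genes. E2f1 had a log2 fold change of 0.98 (SE 0.58, adjusted p = 0.667), Gins2 0.52 (SE 0.31, 0.667), Cdk1 0.69 (SE 0.86, 0.761) and Aurkb 0.71 (SE 0.94, 0.773).

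In K27M-APP against EV-PDGFRA, where both groups overexpress Pdgfra, edgeR called 1.94% of all genes (0.906% higher and 1.03% lower) and 0 of 40 members. At an unadjusted p below 0.05 there were 0 members and 15.5% of all genes. The lists differed in size, with a median of 0.09 for S phase and 0.70 for mitosis. Both K27M-APP libraries were above all EV-PDGFRA libraries for 20 of 22 mitosis genes, all but Mki67 and Cenpf, and for 4 S phase genes (Mcm5, Rrm1, Tyms and E2f1), where 25.5% of all genes were so placed. Ccnb2 was at 76.2 ± 13.7 CPM (SD, n = 2) against 38.1 ± 21.6 CPM (SD, n = 3), a log2 fold change of 0.98 (SE 1.07, adjusted p = 0.726 by edgeR). Kif20a, a kinesin of cytokinesis, had 0.78 (SE 0.72, 0.673), Tyms 0.43 (SE 0.68, 0.823) and E2f1 0.84 (SE 0.62, 0.572). Of the alternatives run, E2f1 passed only in the fit limited to these 2 groups, with an adjusted p of 0.0303, and over all alternatives its adjusted p ran from 0.0303 to 0.877. Without EV-PDGFRA 3 the mitosis median was 0.36 and the S phase median −0.03. For 6 of 8 astrocyte markers both K27M-APP libraries were below all EV-PDGFRA libraries, against 23.9% of all genes. Other marker sums differed too. Progenitor markers summed to 6840 to 7073 CPM in K27M-APP against 8552 to 9509 CPM in EV-PDGFRA. Oligodendrocyte precursor markers, which include Pdgfra, summed to 2247 to 2449 CPM against 2667 to 2898 CPM. Neuron markers were higher, at 872 to 954 CPM against 653 to 807 CPM. The part of these markers in the values was not tested.

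**Figure D5:**
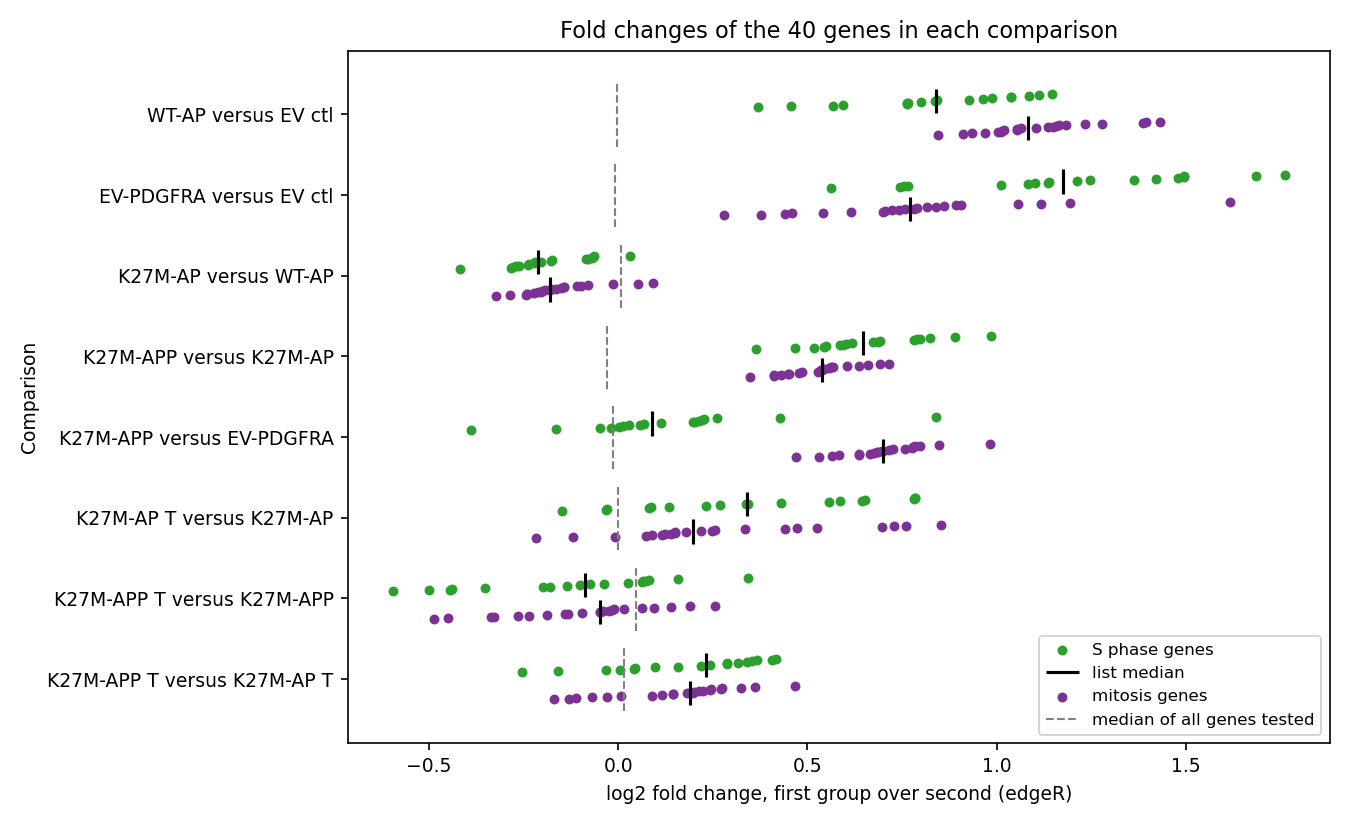
Log2 fold changes of the 40 genes in the 8 comparisons, S phase and mitosis genes apart; each point is 1 gene and bars are list medians. The medians run from −0.21 to 1.18 for S phase and from −0.18 to 1.08 for mitosis, and 0 genes passed the adjusted test.

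Tumours were compared with the preneoplastic cells of the same constructs. In K27M-AP T against K27M-AP, edgeR called 0.0245% of all genes and 0 of 40 members, and 0 members had an unadjusted p below 0.05, against 12.2% of all genes. The medians were 0.34 and 0.20, and without K27M-AP 4 they were −0.03 and −0.20. Gins2 had 0.43 (SE 0.31, adjusted p = 0.602), E2f1 0.78 (SE 0.60, 0.621), Aurkb 0.85 (SE 0.76, 0.675) and Birc5, which encodes survivin, 0.70 (SE 0.65, 0.697). The groups overlapped for all 40 genes, where 5.67% of all genes were wholly above and 4.22% wholly below.

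In K27M-APP T against K27M-APP, edgeR called 0% of all genes and 0 of 40 members, and 0 members against 3.33% of all genes had an unadjusted p below 0.05. The medians were −0.09 and −0.05. All 4 tumours were below both K27M-APP libraries for Rrm2, Tyms, Ccne1 and Ccne2 among the S phase genes and for Bub1 among the mitosis genes, against 8.16% of all genes, and above for 0 members against 9.22% of all genes. Tyms had −0.60 (SE 0.59), Ccne1 −0.50 (SE 0.55), Mki67 −0.49 (SE 0.85) and Bub1, a checkpoint kinase, −0.45 (SE 0.81), all with an adjusted p of 1 by edgeR. In K27M-APP T against K27M-AP T, edgeR called 0% of all genes and 0 of 40 members, and 0 members against 2.67% of all genes had an unadjusted p below 0.05. The medians were 0.23 and 0.19. The S phase median was 0.0074 without K27M-AP T2 and 0.066 without K27M-APP T3, and the mitosis median was 0.090 without K27M-AP T2 and 0.071 without K27M-APP T2. Mcm7 had 0.41 (SE 0.36), Rrm1 0.42 (SE 0.48), Cdc20 0.47 (SE 0.68) and Kif20a 0.27 (SE 0.50), with an adjusted p of 1.00 each. Rrm1, Ccna2, Foxm1 and Ttk were higher in all K27M-APP T libraries than in all K27M-AP T libraries, against 1.21% of all genes, and 0 members were lower in all, against 1.44% of all genes. The margins were narrow. The lowest K27M-APP T and highest K27M-AP T libraries were at 294 and 286 CPM for Rrm1 and 340.1 and 329 CPM for Ccna2. They were at 73.5 and 73.3 CPM for Foxm1 and 47.04 and 47.00 CPM for Ttk.

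Within the tumours, 2 libraries held many of the highest and some of the lowest levels. K27M-APP T3 was at 361 CPM for Mcm3, 335 CPM for Mcm5 and 78.8 CPM for Cdt1, the highest of the 8 tumours for 9 of 18 S phase genes. The same library was at 30.9 CPM for Ccnb2 and 314 CPM for Mki67, the lowest tumour values of these genes. K27M-AP T4 was at 1602 CPM for Top2a, 173 CPM for Aurkb, 66.0 CPM for Cdc6 and 30.3 CPM for E2f1, the highest tumour values, and at 118 CPM for Mcm7 and 182 CPM for Kif11, the lowest. Cell type markers also differed in K27M-APP T3 and K27M-AP T4, which with K27M-APP T4 were only in the later table. Neuron markers summed to 258 and 562 CPM against 716 to 1098 CPM in the other tumours. Vim was at 6055 and 9958 CPM against 1384 to 2851 CPM, but Nes at 682 and 607 CPM against 831 to 2015 CPM. The part of these markers in the levels was not tested. Other tumours held extremes too, and the share of all genes with such ranks was not computed. K27M-AP T2 was lowest for Ccnb1 (105 CPM), Plk1 (66.4 CPM) and Foxm1 (62.2 CPM), among others. K27M-APP T2 was highest for Mki67 (773 CPM) and Ccnb2 (116 CPM), among others. K27M-P T1, the single tumour without the Atrx shRNA, had list medians of 0.02 for S phase and 0.11 for mitosis and lay among the other tumours.

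Neither interaction term passed for any member by edgeR, with 0% of all genes called in each and 0 members at an unadjusted p below 0.05, against 2.45 and 3.55% of all genes. The effect of Pdgfra with K27M-AP minus its effect with the empty vector had medians of −0.60 for S phase, with 0 of 18 positive, and −0.21 for mitosis, with 3 of 22 positive, against −0.04 over all genes. Ccne1 had −0.70 (SE 0.78), Mybl2 −0.90 (SE 1.07), Mki67 −1.05 (SE 1.47) and Cenpf −0.69 (SE 1.4), all with an adjusted p of 1.00. This term contains both low libraries, with medians of −0.37 and 0.62 without EV ctl 5 and −0.92 and −0.61 without K27M-AP 4. The effect of tumour growth with Pdgfra minus that without had medians of −0.49 and −0.38, against 0.06 over all genes, and of −0.14 and 0.01 without K27M-AP 4. There, E2f1 had −1.14 (SE 0.90, adjusted p = 0.913), Gins2 −0.47 (SE 0.47, 0.913), Aurkb −0.88 (SE 1.14, 0.922) and Birc5 −0.71 (SE 0.99, 0.926).

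Other genes of the same pathways gave medians close to those of the 2 lists. In EV-PDGFRA against EV ctl, 22 of 30 other DNA replication genes and 1 of 36 other mitosis genes were higher in all EV-PDGFRA libraries, against 11.4% of all genes. In K27M-APP against EV-PDGFRA, the counts higher in all K27M-APP libraries were 10 of 30 and 28 of 36, against 25.5% of all genes. The median log2 fold changes of these lists were 0.99 and 0.67 in the first comparison and 0.17 and 0.66 in the second. Of 30 other DNA replication genes, 36 other mitosis genes and 13 other E2F and MuvB genes, edgeR called 0 in any comparison, and of 16 G1 cyclins, kinases and brakes it called only Cdkn1a and Cdkn2a. Reads of 9 members could also come from an overlapping gene in the count table: Ccna2, Ccne2, Cdc20, Foxm1, Gins2, Kif20a, Mcm7, Nusap1 and Top2a. Pcna and Ccnb2 have pseudogene rows of their own, so their counts are uncertain to the extent that reads were shared.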

How the data were processed

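Libraries were made after rRNA depletion and read from both ends on a HiSeq 2500, per the labels' protocols. The authors deposited 2 tables of raw gene counts with 39017 genes each, made with Trimmomatic 0.32, STAR 2.3.0e and featureCounts 1.4.4 on mm10, per the submitters' processing notes. The annotation release and strand setting were not given in the sources used here. All 12 libraries present in both tables were identical there and were taken from the later table, which gave 22 libraries, and K27M-P T1 came from the earlier table. A further 8 columns were not analysed. Genes were tested with edgeR 4.0.16 in R 4.3.3 (TMM, filterByExpr with a minimum count of 10, quasi-likelihood F-test, Benjamini-Hochberg), in 1 fit of 15 preneoplastic libraries (20197 genes) and 1 of 13 libraries for tumour comparisons (20373 genes). DESeq2 1.42.0, limma 3.58.1 and the fits named in the closing section were alternatives. Levels on the log2 scale, computed from the deposited counts, used a prior count of 2. The fits were tested on simulated data. The members and lists were chosen with earlier results of these data known. Test values are given for the 2 S phase and 2 mitosis genes with the smallest adjusted p in each comparison, plus any called. RefSeq promoters and GRCm38 gene positions came from reference tables. Same-numbered libraries did not pair consistently by their deviations, with correlations from −0.22 to 0.62.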

Additional observations from a re-analysis of the deposited data

Results flagged for a closer look

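In the K27M-AP group, the mitosis list median of library 4 was −4.54 and the other 3 libraries were at −0.11 to 0.34, so the gap to the nearest library took up most of the range of the group. K27M-AP 4 was known to stand low when the genes were chosen, and this is a description. For Ttk, K27M-APP T2 was at 56.7 CPM while the other 3 K27M-APP T libraries were at 47.0 to 47.7 CPM. Of 126 groups of 4 values examined, 2 were marked in this way, and chance flags about 1 in 20 groups.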

How the results depend on the processing

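The mitosis medians against EV ctl rested on its 2 libraries. Leaving out 1 library at a time gave 0.29 to 3.31 in WT-AP against EV ctl and −0.10 to 2.95 in EV-PDGFRA against EV ctl. The count of members called stayed at 0 under every alternative run, with 1 exception, E2f1 in K27M-APP against EV-PDGFRA when only the compared groups were fitted (1 member). In the 8 comparisons, the named genes that changed sign were all in K27M-AP against WT-AP. In the Pdgfra interaction, 21 of 22 mitosis genes were positive without EV ctl 5, against 3 of 22 with all libraries. Leaving out 1 library at a time gave −0.52 to 0.081 for Rrm1, −0.56 to 0.071 for Cdc20 and −0.53 to 0.11 for Nusap1, with the positive values without K27M-AP 4. These genes had 0.079, 0.069 and 0.11 without EV ctl 5 and K27M-AP 4 together, an alternative chosen after seeing the data. In the earlier table alone they were 0.24, 0.26 and 0.19, and Ccne1 was at 0.20. The cause was not tested beyond these fits. With DESeq2 size factors, the median log2 ratio of EV ctl 5 to EV ctl 4 was −0.48 for S phase (−0.46 with TMM) and −2.99 for mitosis (−2.97 with TMM).

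By limma voom the mitosis medians were 1.84 in WT-AP against EV ctl, 1.56 in EV-PDGFRA against EV ctl and −0.060 in K27M-AP T against K27M-AP. The number of all genes called depended on the tool. In the 8 comparisons in the order of the report, edgeR called 63, 0, 6, 0, 392, 5, 0 and 0, DESeq2 448, 101, 64, 6, 1371, 578, 62 and 11, and limma voom 44, 0, 32, 2, 5142, 115, 33 and 2. In the 2 interaction terms DESeq2 called 6 and 2. With only the compared groups, K27M-APP against EV-PDGFRA gave 2264. The labels' replicate numbers did not pair the libraries consistently (correlations of deviations from −0.22 to 0.62). In K27M-AP against WT-AP, numbers 2 and 3 had correlations of 0.50 and 0.62 and number 1 had −0.22. With the replicate block the S phase median of K27M-APP T against K27M-AP T was −0.070, and the S phase and mitosis medians were 0.84 and 0.63 in K27M-AP T against K27M-AP, −0.29 and −0.55 in K27M-AP against WT-AP and −1.0 and −0.57 in the tumour interaction. Members called stayed at 0, and all genes called were 601 in K27M-APP against EV-PDGFRA, 0 in K27M-AP against WT-AP and 29 in K27M-AP T against K27M-AP. No paired analysis was possible for WT-AP against EV ctl, EV-PDGFRA against EV ctl and the Pdgfra interaction because these groups share fewer than 2 numbers. With 2 to 4 libraries a group, the standard errors of the mitosis genes against EV ctl reached 1 log2 unit, which limits what could be detected.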
